A study of Mus musculus with 16 samples.

Results

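The Snrpn imprinted domain of mouse chromosome 7 was described through 6 genes: Snrpn, Ndn, Magel2, Mkrn3 and Peg12, which are imprinted, and Ube3a, which served as the reference inside the domain. The members were the rows of both deposited tables that carry these gene names, and all 6 were found among the 55471 genes of the methylation table and among the 43984 genes of the histone table. The cells were induced pluripotent stem cells (iPSCs), somatic cells returned to a pluripotent state by reprogramming factors. PTC iPSC lines came from kidney proximal tubule cells (PTC11 and PTC12) and TTF iPSC lines from tail tip fibroblasts (TTF1 and TTF4), with 2 lines of each origin. All lines came from adult mice of 1 breeding scheme, which per the study's methods were heterozygous for SLC34a1-GCE, tdTomato, rtTAROSA (neo-in) and OKMS-250, so both groups carried the same doxycycline-inducible Oct4, Klf4, c-Myc and Sox2. The series title calls the mice triple transgenic. In PTC the loxP-flanked cassette was removed by a tamoxifen-activated Cre driven from the SLC34a1 promoter, whereas TTF received Cre on an episomal plasmid, so the source of Cre and the cell of origin cannot be told apart. Each line was grown from a picked clone, made independent of doxycycline, and kept on a mouse embryonic fibroblast feeder layer. For methylation, H3K4me3 and H3K36me3, 1 library per line was available, although the study's methods state that ChIP was run in duplicate. The comparison by origin therefore rested on 2 lines against 2.

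Imprinted genes are expressed from the copy of 1 parent only. In this domain Snrpn, Ndn, Magel2, Mkrn3 and Peg12 are expressed from the paternal chromosome, and an imprinting centre at the main Snrpn start is methylated in the oocyte and stays methylated on the maternal copy. Ube3a is transcribed from both copies in most cells and from the maternal copy in neurons, where a long antisense RNA from the paternal Snrpn unit runs across it. Reprogramming and long culture of pluripotent cells are known to disturb such marks at some imprinted loci. The values here sum both parental copies, so that a methylated maternal and an unmethylated paternal copy give an intermediate fraction.

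The position of the measured windows decides what each value describes, and the start sequences are therefore shown first. All coordinates are on mm10, and the sequences are those of RefSeq on GRCm38.p6, the same build. All 6 members were matched in the RefSeq promoter set. Shown are the 250 bases before a start, 5′ to 3′ on the strand of the gene, with every CpG, the dinucleotide that is methylated in mammals, in capitals.

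The Snrpn gene spans chr7:59982495-60140219 on the minus strand. The deposited tables place its start at chr7:60140219, the first base of an upstream transcript, and methylation was read from 1 kb before to 1 kb after it. The main start, where the imprinting centre lies, is 135.17 kb further downstream, beside the start of Snurf (chr7:59995449-60005049, minus strand), the gene that shares its transcript with Snrpn. The Snurf row of the tables, and not the Snrpn row, thus covers the main Snrpn start, and it is given beside Snrpn throughout. The 2 starts are shown because they separate the values of the Snrpn and Snurf rows.
Snrpn, main start, chr7:60005200-60005449, minus strand: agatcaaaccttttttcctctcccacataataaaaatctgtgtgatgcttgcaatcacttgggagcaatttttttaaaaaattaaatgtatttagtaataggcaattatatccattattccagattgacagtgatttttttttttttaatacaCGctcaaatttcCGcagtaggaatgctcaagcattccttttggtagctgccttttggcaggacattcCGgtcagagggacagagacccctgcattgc
Snrpn, upstream start, chr7:60140226-60140475, minus strand: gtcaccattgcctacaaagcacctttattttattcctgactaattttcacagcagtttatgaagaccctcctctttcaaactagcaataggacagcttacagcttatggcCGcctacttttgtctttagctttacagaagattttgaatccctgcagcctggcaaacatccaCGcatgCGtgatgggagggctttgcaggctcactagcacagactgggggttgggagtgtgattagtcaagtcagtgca
Each stretch held 3 CpGs, and globally aligned they were 51.6% identical. RefSeq lists 4 Snrpn starts. The upstream stretch shown was 79.8% identical to that of the start at chr7:60047978 and 76.7% identical to that of the start at chr7:60450177. TGCCGC (both strands, each match including a CpG) is the motif read by the imprint-maintaining protein ZFP57. It occurred 1 time in the 300-base promoter window of the main start, though not wholly within the stretch shown. In the windows of the other members it occurred 0 times. It occurred in 11.6% of all 32817 promoter windows.

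Ndn is shown next because its RefSeq start lies outside the window that was measured, and Peg12 and Ube3a because theirs are the CpG-richest windows of the domain. Ndn (chr7:62346569-62350262, plus strand, in the methylation table) had 2 starts in the files. The methylation table put it 1708 bp upstream of the histone table, whose start at chr7:62348277 is that of RefSeq. The methylation window of Ndn therefore ended before the RefSeq start. Peg12 (chr7:62461871-62464510, minus strand) and Ube3a (chr7:59228750-59311536, plus strand) had the same start in both tables to within 2 bp.
Ndn, chr7:62348027-62348276, plus strand: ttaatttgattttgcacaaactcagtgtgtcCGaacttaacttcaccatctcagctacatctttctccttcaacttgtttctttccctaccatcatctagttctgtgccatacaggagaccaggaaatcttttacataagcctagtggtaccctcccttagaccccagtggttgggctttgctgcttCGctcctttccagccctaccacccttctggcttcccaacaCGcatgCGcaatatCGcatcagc
Peg12, chr7:62464511-62464760, minus strand: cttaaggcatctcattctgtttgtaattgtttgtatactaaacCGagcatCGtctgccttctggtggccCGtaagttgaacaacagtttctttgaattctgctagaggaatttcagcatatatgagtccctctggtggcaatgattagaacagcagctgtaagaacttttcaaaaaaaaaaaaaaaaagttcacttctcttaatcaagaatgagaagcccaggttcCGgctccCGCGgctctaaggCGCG
Ube3a, chr7:59228500-59228749, plus strand: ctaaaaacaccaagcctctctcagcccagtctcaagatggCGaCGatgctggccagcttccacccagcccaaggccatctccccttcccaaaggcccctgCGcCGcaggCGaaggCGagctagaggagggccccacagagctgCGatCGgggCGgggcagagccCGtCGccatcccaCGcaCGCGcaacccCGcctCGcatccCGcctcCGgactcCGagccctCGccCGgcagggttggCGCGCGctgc
The Ube3a stretch held 24 CpGs, against 8 before Peg12 and 5 before Ndn. Within 1 kb on each side of the start used for methylation there were 138 CpGs at Ube3a, 123 at Peg12, 75 at Mkrn3, 64 at Magel2, 49 at Snurf, 11 at Ndn and 8 at Snrpn. Ube3a and Peg12 lay at percentiles 95.5 and 93.1 of CpG number over 47010 genes, and Snrpn and Ndn at percentiles 8.1 and 15.5. The remaining members are Magel2 (chr7:62377010-62381640, plus strand) and Mkrn3 (chr7:62417593-62420139, minus strand).

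Over the whole series, the mean methylation of all genes was 0.372 in PTC11 and 0.482 in PTC12 against 0.379 in TTF1 and 0.649 in TTF4, and values of the members are set against these levels. H3K4me3 values, which mark active starts, were present for 15114 to 19990 genes a line. H3K36me3 is laid down over gene bodies during transcription elongation. Its median was 1.60 RPKM in PTC11 and 1.18 in TTF1 but 3.88 in PTC12 and 4.01 in TTF4. Neither table gives reads or coverage, so the depth behind a single value is unknown. Of 10 pluripotency genes, between 7 and 9 had H3K4me3 at the start in each line, against 1 to 4 of 8 fibroblast genes and 1 to 2 of 6 proximal tubule genes. The part of feeder cells in the values was not tested.

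CpG methylation was read by nanopore sequencing and is given as the fraction of methylated CpGs around the start. Snrpn encodes a protein of the spliceosome, and its row, at the upstream start, read 0.372 in PTC11 and 0.725 in PTC12 against 0.386 in TTF1 and 0.936 in TTF4. PTC12 and TTF4 were high and PTC11 and TTF1 low, so that each origin held 1 high and 1 low line. The mean of all genes was also higher in PTC12 (0.482) and TTF4 (0.649) than in PTC11 (0.372) and TTF1 (0.379). The mean of Snrpn was 0.605 ± 0.274 (SD, n = 4 lines), and in all 4 lines Snrpn lay at or above the mean of all genes. Snurf, at the main start, read 0.0955 in PTC11 and 0.308 in PTC12 against 0.387 in TTF1 and 0.651 in TTF4. Both TTF lines were thus above both PTC lines, and they remained so after the mean of each line was subtracted, a pattern that 20.5% of all genes showed in the deposited fractions. Within its own line, Snurf lay at percentile 19.3 in PTC11 and 31.6 in PTC12 against 51.5 in TTF1 and 36.3 in TTF4.

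Ndn and Magel2 encode relatives of the MAGE proteins, Ndn being known as a growth suppressor in neurons. Ndn read 0.603 in PTC11 and 0.438 in PTC12 against 0.137 in TTF1 and 0.902 in TTF4. The TTF lines held both its lowest and its highest value, and its range over the lines of 0.765 lay at percentile 95.8 of the ranges of 50657 genes. Magel2 read 0.298 in PTC11 and 0.264 in PTC12 against 0.209 in TTF1 and 0.204 in TTF4. It was the steadiest imprinted member, with a range of 0.0945 at percentile 7.83, and it did not follow the higher general level of TTF4. In the deposited fractions both TTF lines lay below both PTC lines, as 3.36% of all genes did, but after centring on the mean of each line the origins overlapped.

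Mkrn3, a makorin with a RING finger known from the timing of puberty, read 0.0492 in PTC11 and 0.144 in PTC12 against 0.109 in TTF1 and 0.328 in TTF4. It was low in PTC11, PTC12 and TTF1 and higher in TTF4. Its distance below the mean of the line was alike in all 4, from 0.27 to 0.34, and after centring both TTF lines lay just above both PTC lines, a separation in either direction that 27.8% of genes showed. Peg12, an intronless gene related to the Frat regulators of Wnt signalling, read 0.103 in PTC11 and 0.411 in PTC12 against 0.263 in TTF1 and 0.380 in TTF4. PTC11 was low and the other 3 lines were intermediate. Ube3a, the ubiquitin ligase lost in Angelman syndrome, read 0.0668 in PTC11 and 0 in PTC12 against 0.0159 in TTF1 and 0.0261 in TTF4, at percentiles 14.9, 0.618, 6.15 and 2.55 of the lines. It was close to unmethylated in every line. Its window also lies within 9330162G02Rik, a transcript annotated on the opposite strand.

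**Figure D1:**
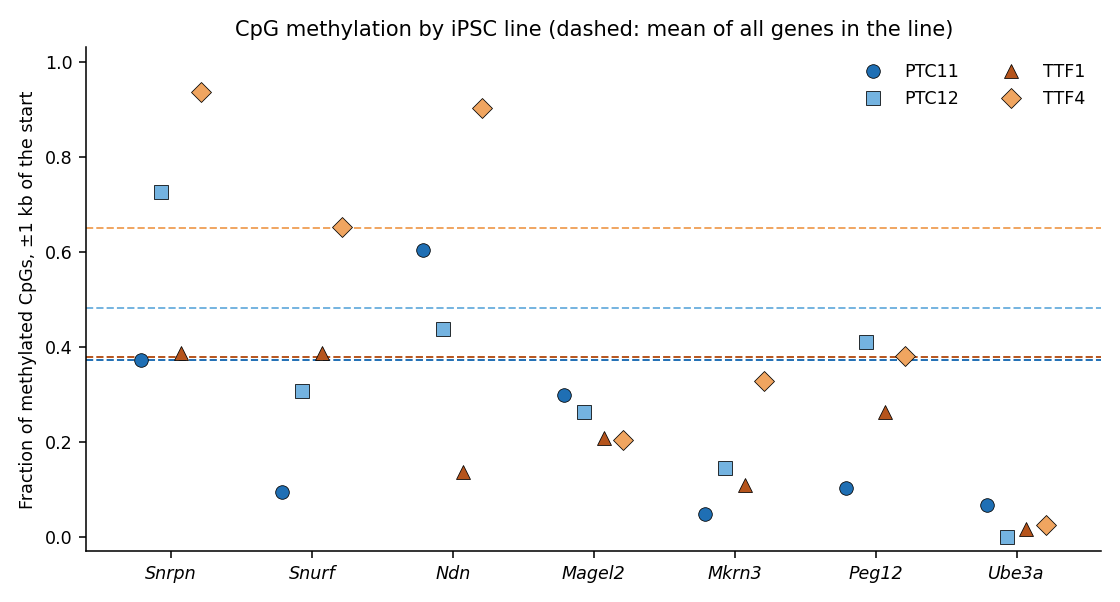
Fraction of methylated CpGs within 1 kb of the start (vertical axis) for the 6 members and Snurf (horizontal axis), with 1 point per iPSC line and a dashed line in the same colour at the mean of all genes in that line. Ube3a lies between 0 and 0.0668 in every line, whereas Ndn runs from 0.137 to 0.902.

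Ordered by the mean over lines, methylation fell from Snrpn (0.605 ± 0.274) to Ndn (0.520 ± 0.319), Peg12 (0.289 ± 0.140), Magel2 (0.244 ± 0.0455), Mkrn3 (0.158 ± 0.120) and Ube3a (0.0272 ± 0.0285; SD, n = 4 lines each). Each of the 5 pairs of neighbours in this order differed by less than the SD of its differences within lines, and none passed the test (adjusted p = 0.625 for each pair, exact two-sided sign-flip permutation test, whose smallest p over 4 lines is 0.125). Against Ube3a, the imprinted members were higher in 19 of 20 values compared within a line, the exception being Mkrn3 in PTC11. Ube3a itself lay at percentiles 14.9 in PTC11 and 0.618 in PTC12 against 6.15 in TTF1 and 2.55 in TTF4. Most genes of each line were thus above it as well, and the count was not particular to imprinted genes. The median of the 5 imprinted members minus Ube3a was 0.231 in PTC11 and 0.411 in PTC12 against 0.193 in TTF1 and 0.354 in TTF4. The mean difference was 0.297 ± 0.102 (SD, n = 4 lines), and the imprinted members were higher in 4 of 4 lines (p = 0.125, exact sign-flip permutation test, the smallest p this design can give). With the Snurf row in place of Snrpn, an alternative chosen after the data were seen, the difference was 0.223 ± 0.142.

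**Figure D2:**
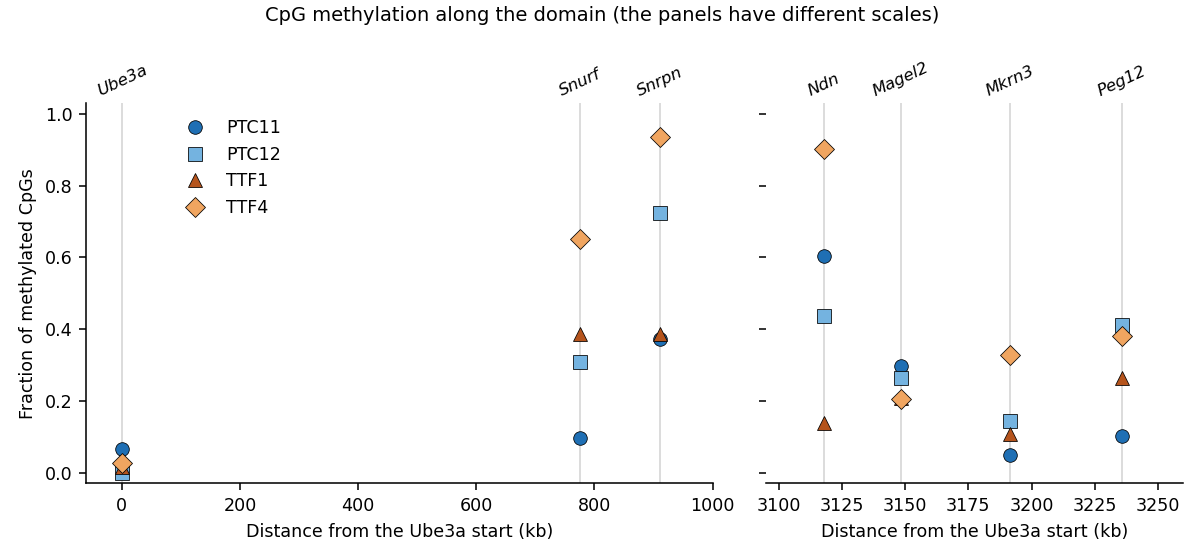
Fraction of methylated CpGs (vertical axis) against the distance of each start from that of Ube3a in kb (horizontal axis, in 2 panels of different scale), with 1 point per iPSC line. Ube3a at 0 kb and Mkrn3 at 3191 kb have the lowest means over the lines, and the spread between lines is widest at Ndn, 3118 kb away.

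The CpG number of the window separated the members further. Each row was set beside genes whose number of CpGs lay within 10% of its own, with the 10% rounded to a whole CpG. For Snrpn, such genes had a median fraction of 0.599 over the 4 lines, next to 0.605 at Snrpn itself. By line their medians were 0.498 in PTC11 and 0.649 in PTC12 against 0.479 in TTF1 and 0.803 in TTF4. They were thus high and low in the same lines as Snrpn. The matching medians over the 4 lines were 0.615 for Ndn, 0.217 for Magel2, 0.169 for Mkrn3, 0.416 for Snurf and 0.0751 for Ube3a, which read 0.0272. Peg12 was further from such genes than any other row given here, with 0.289 against a median of 0.0886, though no test was made. In each line Peg12 was above the median of those genes, which was 0.0512 in PTC11 and 0.0716 in PTC12 against 0.0498 in TTF1 and 0.157 in TTF4. The CpG-rich RefSeq start of Ndn, with 64 CpGs within 1 kb, lay outside the window that was measured.

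**Figure D3:**
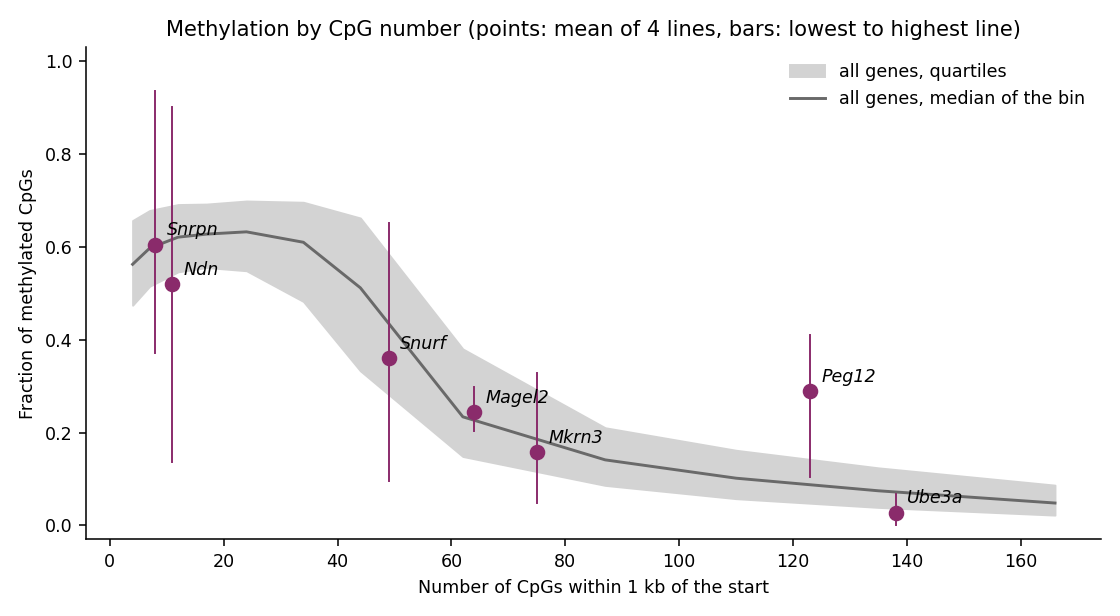
Fraction of methylated CpGs (vertical axis) against the number of CpGs within 1 kb of the start (horizontal axis). Purple points give the mean of the 4 lines and bars the lowest to the highest line, the grey line the median of all genes in bins of CpG number, and the band their quartiles. Peg12, with 123 CpGs, has its mean of 0.289 above the band, whereas the mean of Ube3a is 0.0272 at 138 CpGs.

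Promoters of other genes with a methylation imprint from the germ line were set beside the Snrpn imprinting centre. Of 14 listed genes, 13, among them Peg3, Mest and Plagl1, were in the methylation table. Whether the window measured at each of them covers its imprinted region was not checked. The median of the 13 was 0.389 in PTC11 and 0.433 in PTC12 against 0.390 in TTF1 and 0.828 in TTF4. Snurf minus this median was -0.294, -0.125, -0.00301 and -0.176 in the same order, a mean of -0.150 ± 0.121 (SD, n = 4 lines). Snurf was lower in 4 of 4 lines (p = 0.125, exact sign-flip permutation test), in a comparison chosen after the data were seen. The row named Snrpn, at the upstream start, differed from the same median by 0.0945 ± 0.143 and was higher in 2 of 4 lines (p = 0.5, same exact test).

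H3K4me3 values are RPKM of the peaks from 2 kb before to 3 kb after a start, per kilobase of peak. Ube3a read 3.83 in PTC11 and 6.49 in PTC12 against 6.23 in TTF1 and 4.57 in TTF4, at percentiles from 58.6 to 88.0 of the genes with a value in the line. Mkrn3 read 3.81, 4.10, 3.99 and 2.56 RPKM in the same lines. It nearly equalled Ube3a in PTC11 and lay further below it in the other 3 lines. Magel2 read 3.08 in PTC11, 4.53 in PTC12 and 3.42 in TTF1. Ndn read 1.87 in TTF4, 3.18 in TTF1 and 4.26 in PTC12, the first at percentile 3.99 of its line. Peg12 read 5.30 in PTC12, 5.88 in TTF1 and 2.21 in TTF4, so that it was above the line median in PTC12 and TTF1 and at 0.605 times the median in TTF4.

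Snrpn had no H3K4me3 value at its upstream start in any line, whereas Snurf, at the main start, had one in all 4 (3.36, 3.26, 4.97 and 3.11 RPKM in PTC11, PTC12, TTF1 and TTF4). Magel2 had no value in TTF4, and Ndn and Peg12 had none in PTC11. A missing value means that no peak was kept there, and it does not show that the mark was absent. Those 2 lines had the fewest genes with a value, and of 18001 genes with H3K4me3 in both PTC12 and TTF1, 17.6% had none in PTC11 and 17.2% none in TTF4.

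All 13 H3K4me3 values of imprinted members lay below that of Ube3a in the same line. Ube3a was at percentiles from 58.6 to 88.0 of the genes with a value, so most of those genes lay below it too. Mkrn3, the only imprinted member with a value in all 4 lines, differed from Ube3a by -0.00356 in PTC11 and -0.55 in PTC12 against -0.53 in TTF1 and -0.65 in TTF4 on the log2(RPKM + 1) scale. Its mean difference was -0.44 ± 0.29 (SD, n = 4 lines; p = 0.125, exact sign-flip permutation test), and without PTC11 it was -0.58. For Ndn it was -0.75 ± 0.23, for Magel2 -0.46 ± 0.23 and for Peg12 -0.37 ± 0.38 (n = 3 lines each, exact p = 0.25, the smallest that 3 lines allow).

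H3K36me3 was measured over the gene body. Relative to the median of the line, values of the members ran from 0.452 (Ube3a in TTF1) to 2.09 (Peg12 in TTF4). Snrpn read 1.53 in PTC11 and 3.66 in PTC12 against 1.25 in TTF1 and 3.83 RPKM in TTF4. It kept closest to the line, at 0.956, 0.942, 1.06 and 0.956 times the median of all genes. Snurf, inside the Snrpn body, read 1.88, 2.81 and 1.14 in PTC11, PTC12 and TTF1 and had no value in TTF4. Ndn read 1.66, 3.69, 1.04 and 5.21 RPKM in PTC11, PTC12, TTF1 and TTF4, or 0.883 to 1.30 times the line median.

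Magel2 read 2.16 in PTC11 and 3.50 in PTC12 against 1.76 in TTF1 and 2.07 RPKM in TTF4. It was high against its line in PTC11 and TTF1 (percentiles 86.8 and 89.9) and low in TTF4 (percentile 9.84). Mkrn3 read 1.27 in PTC11, 3.88 in PTC12 and 5.05 in TTF4, and had no value in TTF1. Peg12 read 1.29 in PTC11 and 6.33 in PTC12 against 2.28 in TTF1 and 8.37 RPKM in TTF4. It had the highest values of the members in PTC12, TTF1 and TTF4, at percentiles 88.3, 97.4 and 98.1, but only percentile 24.8 in PTC11. Ube3a read 1.45 in PTC11 and 5.17 in PTC12 against 0.532 in TTF1 and 6.23 RPKM in TTF4, and its percentile ran from 10.3 in TTF1 to 89.7 in TTF4.

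The 5 members with H3K36me3 in all 4 lines were ordered by mean as Peg12 (4.57 ± 3.35 RPKM), Ube3a (3.35 ± 2.78), Ndn (2.90 ± 1.91), Snrpn (2.57 ± 1.36) and Magel2 (2.37 ± 0.771; SD, n = 4 lines each). Peg12 exceeded Ube3a by 1.22 ± 1.01 RPKM within lines and was higher in 3 of 4, while each of the other 3 pairs of neighbours differed by less than the SD of its differences. No pair passed the test (adjusted p from 0.833 to 0.875, exact sign-flip permutation test, which 4 lines cannot bring below 0.125). The order changed relative to the median of each line, where Magel2 (1.06 ± 0.443) was level with Ube3a (1.06 ± 0.488) and Ndn (1.04 ± 0.183), with Snrpn at 0.979 ± 0.0552 and Peg12 again highest at 1.62 ± 0.574. Imprinted members were above Ube3a in 9 of 19 values, and Mkrn3 lay below Ube3a in each of the 3 lines where it had a value. The median of the imprinted members with a value in all 4 lines, which leaves out Mkrn3, was then set against Ube3a. On the log2(RPKM + 1) scale this median minus Ube3a was 0.09 in PTC11 and -0.40 in PTC12 against 0.70 in TTF1 and -0.40 in TTF4. The mean was -0.0041 ± 0.52 (SD, n = 4 lines; p = 1, exact sign-flip permutation test). The sign thus went with the line and not with the origin, positive in the pair with low H3K36me3 medians and negative in the pair with high ones.

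**Figure D4:**
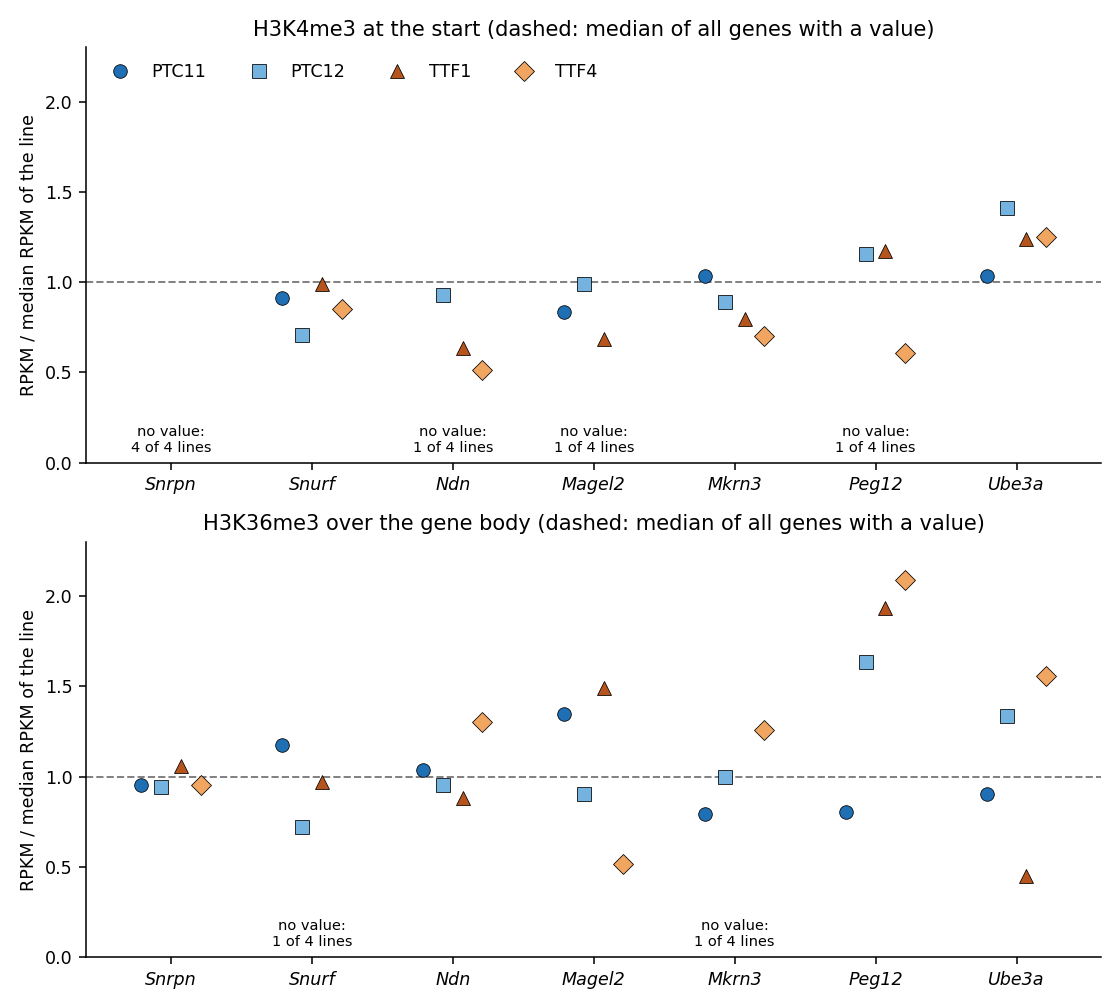
H3K4me3 at the start (upper panel) and H3K36me3 over the gene body (lower panel) as RPKM divided by the median RPKM of all genes with a value in the line (vertical axis), for the 6 members and Snurf, with 1 point per iPSC line. Ube3a lies above the H3K4me3 median in all 4 lines, and Snrpn stays between 0.942 and 1.06 of the H3K36me3 median.

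H3K27me3, a mark of repressed genes, had no value at any of the 6 members in any of the 4 libraries. The libraries listed only 11 to 144 genes with a value in all, which is few for a whole genome. Both PTC libraries of this mark are titled as line 11, and no comparison was made.

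The study asked whether marks of the cell of origin persist in iPSCs, and for the members the comparison was TTF minus PTC lines. With limma over all genes that had a value in all 4 lines, 0 of 6 members were called for methylation, 0 of 2 for H3K4me3 and 0 of 5 for H3K36me3 at an adjusted p under 0.05. Of all genes tested, 0.00395% were called for methylation, 0.481% for H3K4me3 and 0.112% for H3K36me3. At an unadjusted limma p under 0.05 the count was also 0 of these 13 tests. Of all genes, 4.72% passed this threshold for methylation, 0.977% for H3K4me3 and 0.681% for H3K36me3. The smallest adjusted p of a member was 1.00. For a single gene 2 lines against 2 cannot go below p = 0.33 in an exact permutation test.

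The differences had wide 95% intervals. Centred methylation of TTF minus PTC lines was 0.0254 for Snrpn (interval -0.295 to 0.346), -0.0880 for Ndn (-0.418 to 0.242) and -0.162 for Magel2 (-0.437 to 0.113). It was 0.0343 for Mkrn3 (-0.225 to 0.293), -0.0227 for Peg12 (-0.301 to 0.255) and -0.0995 for Ube3a (-0.354 to 0.155). Snurf had the largest difference of these 7 rows, at 0.231 (-0.055 to 0.516; limma adjusted p = 1.00).

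For H3K4me3 on the log2(RPKM + 1) scale the difference was -0.23 for Mkrn3 (-0.89 to 0.42) and 0.08 for Ube3a (-0.90 to 1.06). Neither separated the origins, while 8.21% of all genes tested did. For H3K36me3 on the same scale it was -0.06 for Snrpn (-1.98 to 1.86), 0.01 for Ndn (-2.01 to 2.03), -0.37 for Magel2 (-2.26 to 1.51), 0.44 for Peg12 (-2.14 to 3.02) and -0.22 for Ube3a (-2.27 to 1.82). Magel2 was the only one of these 5 whose H3K36me3 did not overlap between the origins, with both TTF lines below both PTC lines. Of all genes tested, 3.50% did not overlap in either direction. Relative to the line median, Magel2 was 1.35 in PTC11 and 0.902 in PTC12 against 1.49 in TTF1 and 0.517 in TTF4, so the origins overlapped. The intervals for both histone marks and for methylation are those of limma. For the histone marks limma gave nearly all weight to a spread shared between genes, and for methylation most of the weight. The intervals thus do not give the spread between the lines of a single gene.

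Other transcripts of the unit were taken from a fixed list of 7, of which 4 were in the methylation table. Snhg14, the host of the antisense RNA that reaches Ube3a, read 0.499 in PTC11 and 1 in PTC12 against 0.578 in TTF1 and 0.952 in TTF4. It was again high in PTC12 and TTF4, the lines with the highest means over all genes. The small nucleolar RNA gene Snord64 read 0.956, 0.638, 0.0286 and 0.717, and Snord107 read 1, 0.695, 0.638 and 0.835. None of the 4 was called (limma adjusted p = 0.617 for Snord64, the lowest of them), and 1, Snord64, had an unadjusted p under 0.05, as 4.72% of all genes had. The snoRNA clusters are tandem repeats in which short reads cannot be placed with certainty. The histone table listed 71 SNORD116 and 137 SNORD115 genes, and 0 of them had a value in all 4 lines for either H3K4me3 or H3K36me3.

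Factors that keep imprints in place, such as the DNA methyltransferase Dnmt1 and the zinc finger protein Zfp57, were listed as 11 genes. None was called, out of 11 tested for methylation, 6 for H3K4me3 and 8 for H3K36me3. At an unadjusted limma p under 0.05 there were 0 for methylation, 1 for H3K4me3 and 0 for H3K36me3. The shares of all genes tested were 4.72%, 0.977% and 0.681%. The median TTF minus PTC difference of the 11 genes in centred methylation was 0.00616, beside -0.0100 over all genes. Of the germline imprinted promoters, 0 of 13 were called for methylation, with a median difference of -0.114 (2 at an unadjusted limma p under 0.05, Peg3 and Peg13, beside 4.72% of all genes). The 5 imprinted members of the domain had a median of -0.0227.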

How the data were processed

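The authors aligned nanopore reads to mm10 with minimap2 2.17-r941, called CpG methylation with Nanopolish and deposited, per gene, the mean fraction of methylated CpGs within 1 kb of the start. For histone marks they aligned with Bowtie2 2.1.0, called peaks against input with MACS2 2.0.10, counted reads with bedtools 2.17.0, and deposited RPKM per peak minus input RPKM, averaged per gene. Peaks with no excess over input were dropped, per the methods, so a gene may lack a value. The methods state a single number of ChIP-seq reads acquired for every sample, but mapped reads per peak and methylation coverage are not in the tables, so precision rests on the spread between lines.

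TTF and PTC lines were compared with limma 3.58.1 (R 4.3.3, eBayes with trend, Benjamini-Hochberg over all genes) on log2(RPKM + 1), or on the fraction after subtraction of the line's mean. Members were compared with Ube3a within lines. Fitting was tested on simulated data with a tighter spread between lines than the members had, which does not show what these data could detect. CpGs were counted in GRCm38 with Python 3.11.15. Named genes were the members, listed transcripts of the unit, the 2 nearest listed neighbours on each side (1 is not reported here), and the 5 genes closest to Snrpn in methylation. Peg3 and Peg13 were named after their values were seen. Members and lists were chosen with earlier results of these data known. Alternatives varied pseudocount, scaling, filters and the lines included.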

Additional observations from a re-analysis of the deposited data

How the results depend on the processing

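No paired analysis was possible because PTC and TTF lines share no replicate number in the labels. The count of members called by origin was 0 in each assay under all 27 alternatives, whereas the number of genes called over the whole table ran from 0 to 183 for H3K4me3 (66 in the fit reported), from 0 to 53 for H3K36me3 (19) and from 0 to 1003 for methylation (2, and 1003 without TTF1). The smallest adjusted p of a member in an alternative was 0.218 (limma). The direction of imprinted members minus Ube3a was the same under all alternatives for methylation, where Ube3a lay below most genes of every line. Leaving out 1 line gave 0.260 to 0.332, and leaving out the Snrpn and Ndn rows, chosen after seeing the data, gave 0.199. For H3K4me3 the difference was that of Mkrn3 alone, the only imprinted member with a value in all 4 lines, so mean and median could not differ. It was negative under all alternatives (-0.58 to -0.36 with 1 line left out). With every imprinted member that had a value in a line, an alternative chosen after seeing the data, it was -0.503. For H3K36me3 the difference of the imprinted members other than Mkrn3, -0.0041, had no stable sign. It was 0.0424 with the mean in place of the median, 4.204 in percentile points, 0.13 with pseudocount 0.1, 0.10 after quantile normalization and -0.24 to 0.13 with 1 line left out. Snrpn minus other germline promoters was -0.150 with the Snurf row and 0.0289 to 0.132 with 1 line left out. Signs of differences by origin that were not called also turned: Peg12 methylation was 0.0644 without centring, and after quantile normalization Snrpn H3K36me3 was 0.0898, while Ndn H3K36me3 was -0.0719 with pseudocount 0.1. With 1 line left out, methylation ran from -0.114 to 0.165 (Snrpn), -0.335 to 0.159 (Ndn), -0.122 to 0.0764 (Peg12) and -0.230 to 0.0306 (Ube3a), H3K4me3 from -0.479 to 0.0103 (Mkrn3) and -0.24 to 0.39 (Ube3a), and H3K36me3 from -0.61 to 0.49 (Snrpn), -0.79 to 0.81 (Ndn), -0.40 to 1.28 (Peg12) and -1.34 to 0.90 (Ube3a). Without a change of sign, methylation of Magel2 ran from -0.300 (without TTF1, limma adjusted p = 0.218) to -0.0241 (without TTF4), that of Mkrn3 from 0.00861 (without TTF1) to 0.0601 (without TTF4), and H3K36me3 of Magel2 from -0.63 (without PTC11) to -0.12 (without PTC12). With a line left out, its origin held 1 line, assumed to vary like the other. The cause of these changes was not tested.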

Other observations

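Genes beside the domain showed the level around it. On the Ube3a side, Atp10a, a phospholipid-transporting ATPase, had fractions of 0.618 in PTC11 and 0.583 in PTC12 against 0.479 in TTF1 and 0.910 in TTF4. On the Peg12 side, the nicotinic receptor gene Chrna7 had 0.223, 0.208, 0.0714 and 0.154, and Otud7a, a deubiquitinase, 0.0308, 0.196, 0.0786 and 0.323. Chrna7 was below the mean of the line in all 4 lines, with both TTF lines below both PTC lines as for 3.36% of all genes in the deposited fractions, and Atp10a was above the mean in all 4. Of 17 listed neighbours, 0 of 17 tested were called for methylation by limma (0 at an unadjusted p under 0.05), 0 of 15 for H3K4me3 and 0 of 15 for H3K36me3.

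The 5 genes whose fractions lay nearest to those of Snrpn over the 4 lines were Gm8873, Gm4596, Gm49495, Gm29848 and Gm25016, at Euclidean distances from 0.0137 to 0.0349 among 50657 genes. None lies on chromosome 7, and Gm8873, the nearest, read 0.363 in PTC11 and 0.720 in PTC12 against 0.383 in TTF1 and 0.944 in TTF4.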
